A study of Mus musculus with 15 samples.

Results

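Hearts of mouse embryos that carry 1 knockout allele of Adamts16 (Adamts16+/-) were set against wild-type hearts (WT) on embryonic day E14.5, to ask which transcripts differ when 1 copy of the gene is lost. The members of the comparison were chosen by the genotype label alone: 4 Adamts16+/- and 7 WT libraries, 11 of the 15 in the series. The other 4 libraries, of Adamts16+/H355Q hearts (1 allele named for the substitution H355Q), entered the estimate of spread and 1 contrast. All 15 were made from whole E14.5 hearts, with no treatment given in the labels. The sources used here do not give the mouse strain, the design of the knockout allele or the number of embryos behind a library, so the p-values measure the spread between libraries, which may be technical. Of 55335 genes in the deposited table, the 15172 with a mean of at least 0.5 FPKM over the 15 libraries were tested.

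ADAMTS16 is a secreted zinc metalloprotease of the family that cuts extracellular matrix proteins. At E14.5 the chambers of the mouse heart have been divided, the valves are being remodelled out of cushion mesenchyme, and the ventricular wall is thickening by growth of its muscle. The muscle of this age burns mainly glucose and lactate, and the genes for fatty acid use and for the adult contractile and calcium machinery climb towards birth, while the embryonic red cells of the yolk sac give way to red cells from the liver.

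The Adamts16+/- and WT libraries overlapped in implied depth, but the libraries were not alike in overall pattern. The fragment totals implied by the steps between low values ran from 37.7 to 48.0 M (1e6) for Adamts16+/- and from 42.1 to 56.2 M for WT. For Adamts16+/H355Q they ran from 51.5 to 59.1 M, above every Adamts16+/- library. On the first principal component, which held 27.6% of the variance, WT libraries 1 to 4 scored -19.6 to -12.2, the Adamts16+/- libraries -18.7 to -11.8, and WT libraries 5 to 7 scored 8.02 to 36.1. The Adamts16+/H355Q libraries scored 8.49 to 23.1. WT libraries 5 to 7 thus stood apart from the other WT libraries. With them left out 59 genes were called (adjusted p under 0.05 in limma), and 41 of these are among the 417 called with all libraries. Genes whose call held without them are named as such below, and every other gene reported as called, risen or fallen missed the threshold in that fit. Xist, the RNA that coats the silenced X of a female cell, and Ddx3y, a gene of the Y chromosome, both exceeded 1 FPKM in 3 of the 4 Adamts16+/- and 4 of the 7 WT libraries.

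The targeted transcript did not separate the genotypes. Adamts16 stood at 0.0897, 0.235, 0.0635 and 0.0747 FPKM in the Adamts16+/- libraries, and in WT its lowest, median and highest values were 0.0324, 0.0647 and 0.235 FPKM. The 4 values lay inside the WT range, and all were far below the 0.5 FPKM filter. The mean log2 difference was 0.02, with a two-sided exact permutation p of 0.842 over 330 assignments. Without WT libraries 5 to 7 the difference was 0.15, with a two-sided exact permutation p of 0.0571 over 70 assignments. Without WT libraries 1 to 4 it was -0.15, with a two-sided exact permutation p of 0.257 over 35 assignments. The sign thus depended on which WT libraries were used. A lower level in Adamts16+/- was not detectable at this depth, and the level of the gene gives no check of the labels.

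In the limma fit 417 of the 15172 genes passed an adjusted p of 0.05, 2.75% of those tested. Of these 238 were higher in Adamts16+/- (1.57%) and 179 lower (1.18%). These shares are the background for every list count below. A list with 1 or 2 calls is described by those genes and not as a changed list. Most changes were moderate: the median size was 0.40 on the log2 scale for the higher genes and 0.51 for the lower, and 16 genes in each direction differed by at least 2-fold. The median over all genes tested was 0.01, and 52.9% of all genes had a positive value. All 4 Adamts16+/- values lay above the 7 WT values for 516 genes (3.40%) and below them for 363 (2.39%). Among the called genes, 206 of the 238 higher and 157 of the 179 lower had such separated values. In whole tissue, fewer cells of a type and less RNA per cell cannot be told apart, and that holds for every gene described here.

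**Figure D1:**
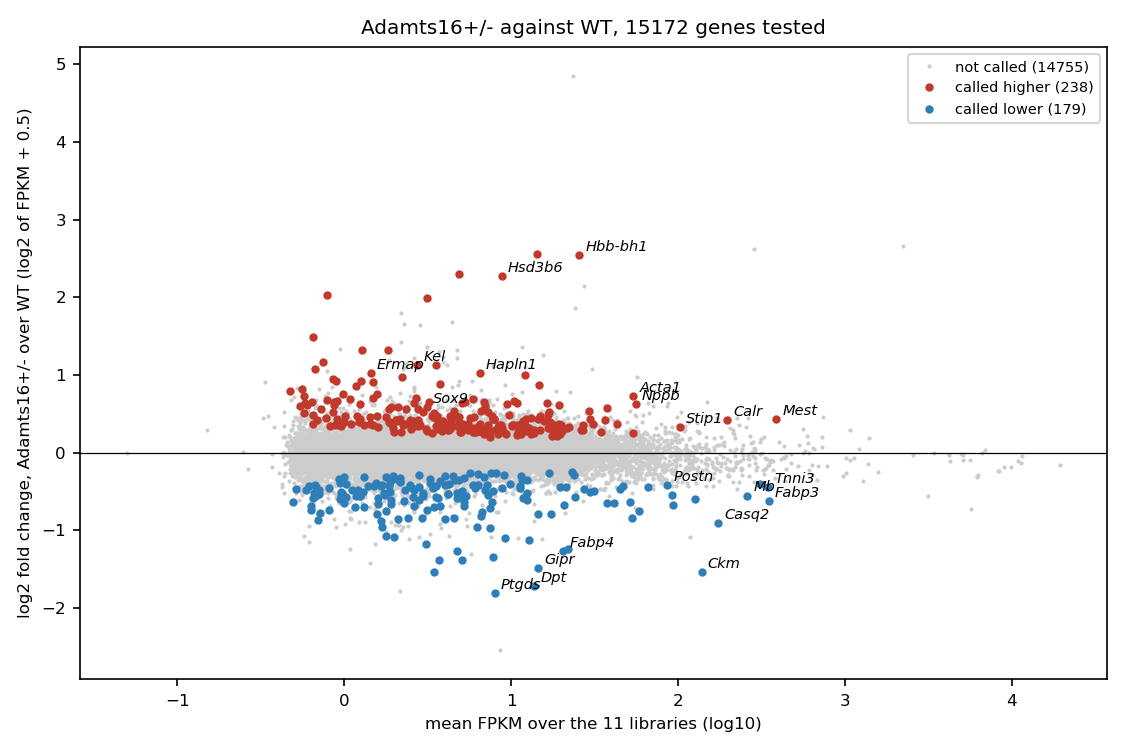
Log2 fold change of Adamts16+/- over WT (vertical axis, log2 of FPKM + 0.5) against the mean FPKM of the 11 libraries (horizontal axis, log10) for the 15172 genes tested, with the 238 genes called higher in red and the 179 called lower in blue. Heart muscle genes such as Ckm, Casq2, Fabp3, Mb and Tnni3 sit at the high-abundance end of the lower set, and Mest, Calr and Stip1 at that end of the higher set.

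Several genes for taking up and binding fatty acids were lower. Of 18 members tested, 4 fell and 0 rose (Fabp4, Gpihbp1, Cd36 and Fabp3), with a list median of -0.20 against 0.01 over all genes. Fabp4, the fatty acid binding protein of capillary endothelium and fat cells, measured 9.79, 9.83, 12 and 10.5 FPKM in Adamts16+/-, against 21.0, 24.2 and 32.8 FPKM as the lowest, median and highest WT values. Every knockout library was thus below every WT library. The log2 fold change was -1.26 ± 0.18 (SE; adjusted p = 0.0088), and the call was made in all 15 fits that each leave out 1 library. Of these 15 fits, 4 leave out an Adamts16+/H355Q library, which changes the estimate of spread and not the fold change. Gpihbp1, which holds lipoprotein lipase on the capillary wall, stood at 1.21, 1.52, 1.54 and 1.46 FPKM, against 2.63, 3.61 and 6.07 FPKM in WT. The groups did not overlap, and its log2 fold change was -1.18 ± 0.21 (adjusted p = 0.0146). Cd36, a membrane receptor that takes up long-chain fatty acids, averaged 27.4 ± 3.57 FPKM (SD, n = 4) against 43.4 ± 5.70 (SD, n = 7). Fabp3, the fatty acid binding protein of heart muscle, ran from 232 to 286 against 306 to 476 FPKM. Neither overlapped WT, with adjusted p of 0.0151 for Cd36 and 0.019 for Fabp3. Outside the list, the retinol-binding protein gene Rbp7 and Cd300lg, both expressed by capillary endothelium, had log2 fold changes of -0.95 and -0.74 (adjusted p = 0.0146 and 0.0116).

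General endothelial markers were not called. Of 22 endothelial and endocardial markers 0 were called in either direction, and their median log2 fold change was 0.10. Their mean level, on the log2(FPKM + 0.5) scale, ran from 3.35 to 3.41 in the Adamts16+/- libraries and from 3.18 to 3.51 in WT. Without WT libraries 5 to 7, Fabp4 kept an adjusted p of 0.0458 and Cd300lg 0.0387, whereas Gpihbp1, Cd36 and Fabp3 lay between 0.0683 and 0.0715. The median of the endothelial list was then -0.11.

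In the later steps of fuel use a few genes were called, beside 1.18% of all genes tested called lower and 1.57% higher. Counts this small are given as values and not as a change of the lists. Of 29 members of fatty acid oxidation, 2 fell: Pdk4, the kinase that shuts pyruvate out of the mitochondrion's oxidative pathway (-0.45 ± 0.10, adjusted p = 0.0343, and 0.019 without WT libraries 5 to 7), and Etfdh, which passes electrons from acyl-CoA dehydrogenases to ubiquinone (-0.25 ± 0.06, adjusted p = 0.0446). Pdk4 was called in 8 of the 15 leave-one-out fits, and its adjusted p was 0.0959 without WT libraries 1 to 4. Outside the list, Acaa2, the thiolase that ends each round of mitochondrial fatty acid breakdown, fell from 145 ± 30.0 to 94.4 ± 7.24 FPKM (adjusted p = 0.0437). Among 35 nuclear-encoded respiratory chain genes 1 fell, the muscle isoform Cox8b, at 9.97, 9.52, 11 and 14 FPKM against 14.4, 25.3 and 41.0 FPKM in WT. Its 4 values lay under all WT values, but the highest of them came within 1 FPKM of the lowest WT library. None of the 35 had a positive log2 fold change, though 2 did after quantile normalization and 5 as TPM, and the list median was -0.23 (-0.16 as TPM). That median was -0.09 without WT libraries 5 to 7. The list's mean level, on the log2(FPKM + 0.5) scale, lay between 6.03 and 6.34 in Adamts16+/-, between 6.10 and 6.41 for WT libraries 1 to 4, and between 6.59 and 6.79 for the remaining 3. For the tricarboxylic acid cycle 0 of 16 genes were called, and for cholesterol synthesis 0 of 22. In glycolysis Hk2, the insulin-responsive hexokinase, rose from 13 ± 1.72 to 18.1 ± 0.948 FPKM, and Ldhb, the lactate dehydrogenase chain of heart, fell from 338 ± 27.7 to 255 ± 25.5 FPKM (adjusted p = 0.0296 and 0.0387). No other member of the 25 was called, and without WT libraries 5 to 7 Cox8b, Hk2, Ldhb, Etfdh and Acaa2 had an adjusted p of 0.0756 to 0.135.

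**Figure D2:**
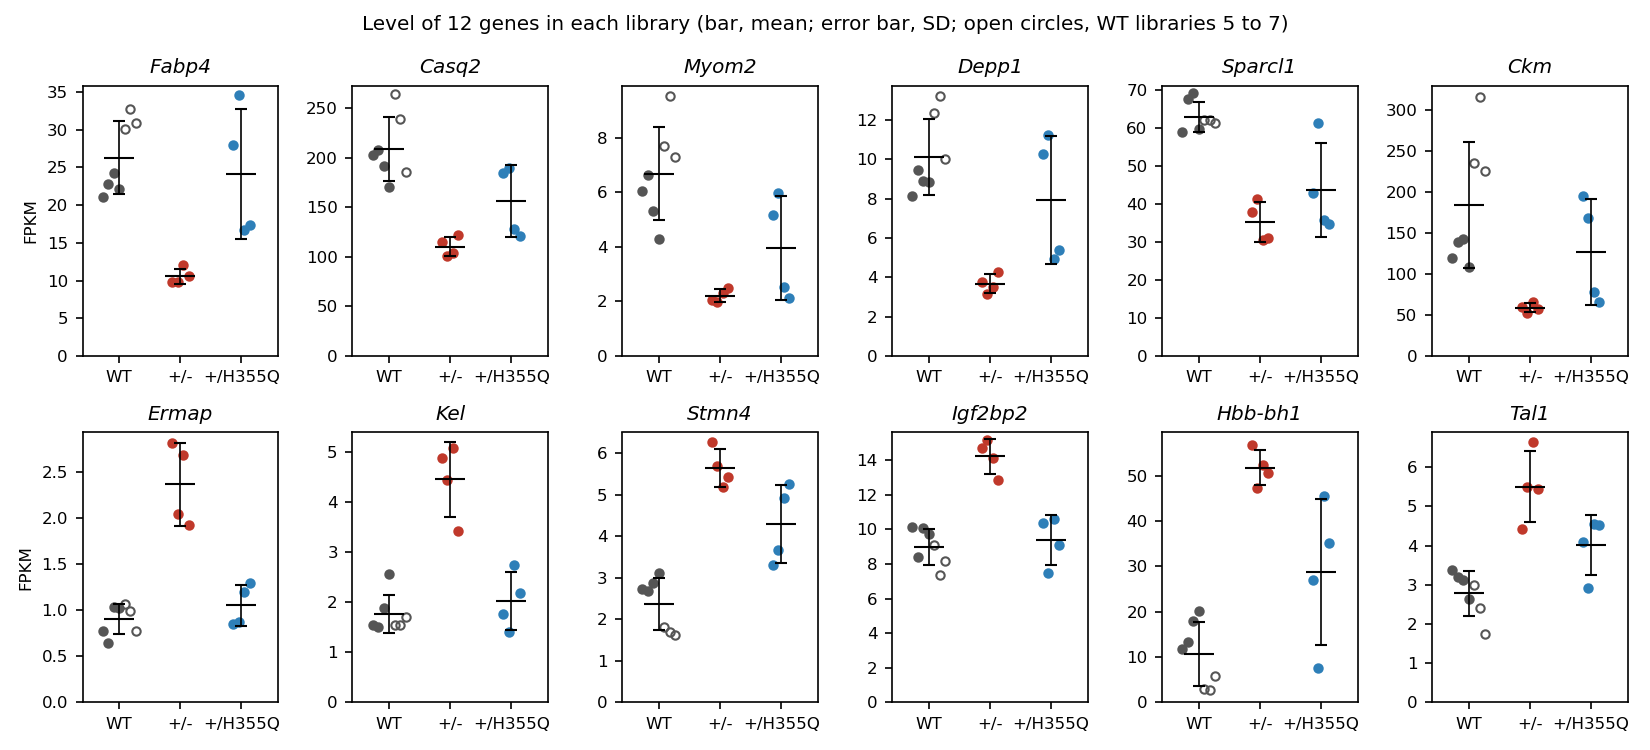
FPKM of 12 genes in every library, by genotype (WT, Adamts16+/- and Adamts16+/H355Q), with a bar at the mean and an error bar of 1 SD. Open circles are WT libraries 5 to 7. For Fabp4, Casq2, Myom2, Depp1, Sparcl1 and Ckm the 4 Adamts16+/- points lie below all WT points, and for Ermap, Kel, Stmn4, Igf2bp2, Hbb-bh1 and Tal1 above them.

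Some calcium and creatine genes of heart muscle fell, at high abundance. Of 27 members of that list 4 fell and 1 rose. Casq2, the calcium store protein of the cardiac sarcoplasmic reticulum, read 115, 101, 104 and 122 FPKM, against 171, 203 and 264 FPKM as the lowest, median and highest WT values. No knockout library reached the WT range, and the call (-0.91 ± 0.14, adjusted p = 0.0092) held in all 15 leave-one-out fits and without WT libraries 5 to 7 (adjusted p = 0.0458). Pln, the inhibitor of the calcium pump, was at 53.5 ± 2.13 against 73.1 ± 5.45 FPKM (adjusted p = 0.0181, and 0.0618 without WT libraries 5 to 7). Both muscle creatine kinases fell, the cytosolic Ckm by 1.54 and the mitochondrial Ckmt2 by 0.96 on the log2 scale (adjusted p = 0.0246 for each). Without WT libraries 5 to 7 the drop of Ckm was 1.10 and that of Ckmt2 0.64, with adjusted p of 0.0937 and 0.0743. The member that rose was Hcn4, the pacemaker channel of the sinus node, at 5.30 ± 0.682 against 3.69 ± 0.616 FPKM (adjusted p = 0.0448), called in 4 of the 15 leave-one-out fits.

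Structural muscle genes gave a mixed picture. In the sarcomere list of 34, Myom2, Cavin4 and Tnni3 fell and Acta1 rose. Myom2, a cross-linker of the M-band, read 2.07, 1.98, 2.31 and 2.50 FPKM against 4.28, 6.66 and 9.53 FPKM in WT. The groups lay well apart, and the call (-1.37 ± 0.23, adjusted p = 0.0121) was made in all 15 leave-one-out fits, but not without WT libraries 5 to 7 (adjusted p = 0.0696). Tnni3, the cardiac troponin I that replaces the slow skeletal form around birth, averaged 282 ± 35.1 against 382 ± 38.4 FPKM, and 1 knockout library (329.8 FPKM) lay inside the WT range. Myzap, a protein of the intercalated disc, averaged 17.2 ± 0.80 against 23.5 ± 1.10 FPKM, a small difference that passed in all 15 leave-one-out fits (adjusted p = 0.0092, and 0.0576 without WT libraries 5 to 7). Myoglobin (Mb) and the LIM protein gene Fhl2 fell by 0.55 and 0.68 (adjusted p = 0.0392 and 0.0146), and without WT libraries 5 to 7 Mb, Fhl2 and Tnni3 had 0.0675, 0.0696 and 0.137.

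In the other direction, Acta1, the skeletal actin that the fetal heart also makes, read 61.7, 63.1, 91.4 and 72.5 FPKM against 26.8, 43.8 and 55.3 FPKM in WT (0.73 ± 0.19, adjusted p = 0.0482). Nppb, the B-type natriuretic peptide made by stretched ventricular muscle, read 65.3, 60.8, 79.3 and 82.9 FPKM against 38.1, 45.9 and 53.4 FPKM. Neither gene overlapped WT, and Nppb had a log2 fold change of 0.63 ± 0.12 (adjusted p = 0.0206), called in 12 of 15 leave-one-out fits against 3 for Acta1. Leaving out WT libraries 5 to 7, the adjusted p was 0.0659 for Nppb and 0.0929 for Acta1. Cited1, a transcriptional co-regulator of embryonic ventricle, rose by 0.57 (adjusted p = 0.0377) with 1 library inside the WT range. Of 13 general cardiomyocyte markers only Tnni3 was called, and their median was -0.09. Their mean level was 8.13 to 8.43 in Adamts16+/- and 8.18 to 8.58 in WT. The related peptide gene Nppa averaged 1027 against 1093 FPKM and was not called (adjusted p = 0.724).

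Myog, the transcription factor that switches on skeletal muscle genes, was called higher with values of 0.528, 5.2, 1.57 and 3.02 FPKM against 0.355, 0.498 and 0.851 FPKM in WT. The first of the 4 lay inside the WT range. The call was made in 2 of 15 leave-one-out fits, and the adjusted p was 0.117 without WT libraries 5 to 7 and 0.0653 without WT libraries 1 to 4. Embryonic skeletal myosin Myh3 followed the same libraries, at 0.408, 12.7, 1.17 and 6.02 FPKM, and was not called (adjusted p = 0.104). The mean level of the 7 measured skeletal markers was 0.52 to 1.52 in Adamts16+/- and 0.52 to 0.88 in WT, on the log2(FPKM + 0.5) scale. The part of skeletal muscle in the Myog, Acta1 and Ckm values was not tested.

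**Figure D3:**
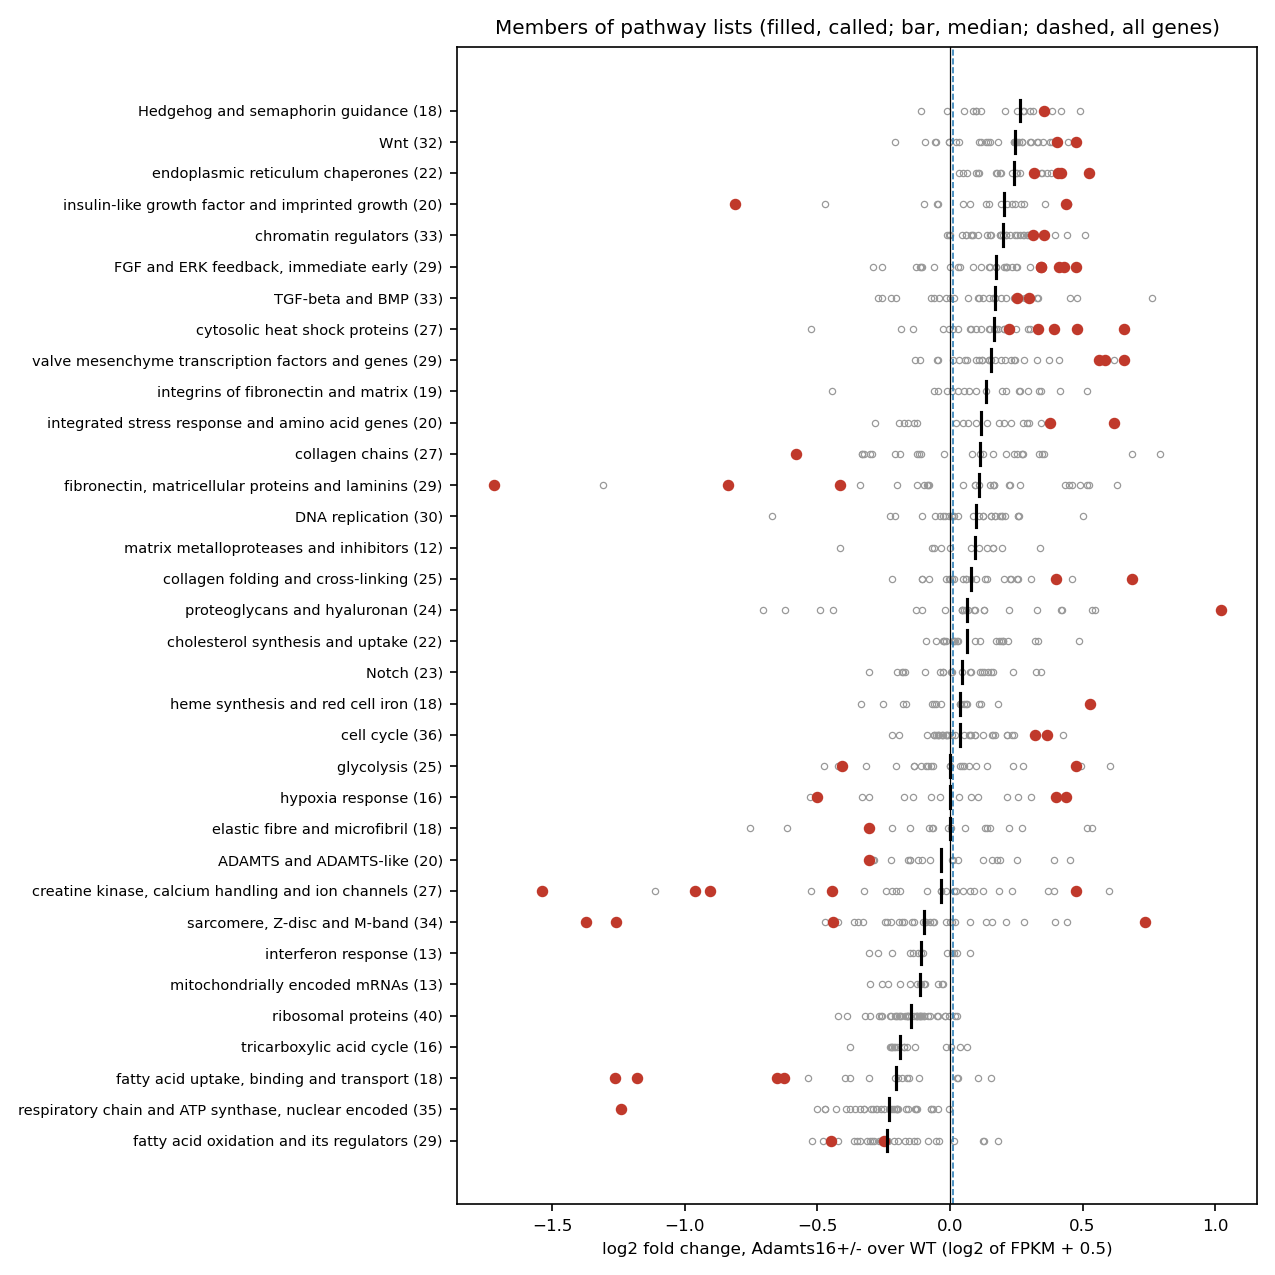
Log2 fold change of every tested member of the pathway lists (number tested in brackets), ordered by list median. Filled points passed the adjusted p, short bars mark the list median, and the dashed line marks the median of all genes at 0.01. Fatty acid lists lie left of it with medians of -0.20 and -0.24, and endoplasmic reticulum chaperones lie wholly to its right with a median of 0.24.

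Protein-folding genes leaned higher. All 22 endoplasmic reticulum chaperone genes tested had a positive log2 fold change, also under each of 3 other scalings, with a median of 0.24, and 4 of them passed (Hyou1, Dnajb11, Creld2 and Calr). The cytosolic heat shock list gave 5 calls among 27 members (Hspa1a, Hsph1, Stip1, Hspa1b and St13), none lower, with a median of 0.17 and 22 members above 0. To show the windows of called members, the promoters of 3 are printed from RefSeq (GRCm38.p6), 300 bases in the direction of transcription, with a match to a stress-response motif in capitals. The endoplasmic reticulum stress element was searched as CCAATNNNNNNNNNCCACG on both strands (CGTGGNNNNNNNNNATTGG on the printed strand of both windows), and the heat shock core as GAANNTTC, which reads the same on both strands.
Calr promoter, chr8:84846882-84847181, minus strand: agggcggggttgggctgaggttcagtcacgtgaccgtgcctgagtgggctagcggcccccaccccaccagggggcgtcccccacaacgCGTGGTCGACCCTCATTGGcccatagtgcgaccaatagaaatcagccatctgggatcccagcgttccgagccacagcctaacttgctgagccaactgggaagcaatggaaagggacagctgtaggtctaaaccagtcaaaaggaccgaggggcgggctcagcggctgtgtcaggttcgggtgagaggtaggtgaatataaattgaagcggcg
Creld2 promoter, chr15:88819396-88819695, plus strand: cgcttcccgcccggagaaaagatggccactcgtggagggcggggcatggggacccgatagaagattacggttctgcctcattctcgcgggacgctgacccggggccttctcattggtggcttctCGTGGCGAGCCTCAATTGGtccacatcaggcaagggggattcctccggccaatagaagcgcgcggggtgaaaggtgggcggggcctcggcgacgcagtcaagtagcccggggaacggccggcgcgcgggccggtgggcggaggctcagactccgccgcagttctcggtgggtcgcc
Hspa1a promoter, chr17:34972107-34972406, minus strand: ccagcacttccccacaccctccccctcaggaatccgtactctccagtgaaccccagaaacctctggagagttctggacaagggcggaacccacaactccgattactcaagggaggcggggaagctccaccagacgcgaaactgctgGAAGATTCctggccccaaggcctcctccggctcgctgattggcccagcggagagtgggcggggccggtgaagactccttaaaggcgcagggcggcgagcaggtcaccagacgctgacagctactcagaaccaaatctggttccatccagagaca
The stress element starts at base 89 of the Calr window and base 125 of the Creld2 window, and is held by 0.119% of the 32817 RefSeq promoter windows. Dnajb11 has a window without it. The heat shock core starts at base 147 in Hspa1a and is far more common, at 7.86% of windows. It is also in the windows of Hspa1b and Hsph1, and not in that of Stip1. A match describes letters in the window and shows no binding.

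Calr, the calcium-binding chaperone calreticulin, read 237, 239.7, 225 and 231 FPKM against 151, 176 and 212 FPKM as the lowest, median and highest WT values. Creld2, a disulphide isomerase of the same compartment, read 19.4, 18.2, 18.5 and 18.4 FPKM against 11.3, 14.4 and 16 FPKM. In both genes every knockout library exceeded every WT library, with log2 fold changes of 0.42 ± 0.09 and 0.41 ± 0.09 (adjusted p = 0.0289 for each). Dnajb11, a co-chaperone of BiP, averaged 19 ± 0.313 against 15.2 ± 1.04 FPKM. Hyou1, a large chaperone related to Hsp70, read 10.2, 9.86, 7.32 and 9.04 FPKM against 5.13, 6.16 and 7.12 FPKM. Adamts16+/- library 3 only just cleared the WT maximum (adjusted p = 0.0224). Each of these 4 calls was made in 10 to 12 of the 15 leave-one-out fits, and without WT libraries 5 to 7 the adjusted p was 0.0486 for Creld2 and 0.0828 to 0.097 for the other 3.

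Of the 5 cytosolic chaperones called, Hsph1, a nucleotide exchange factor of Hsp70, had the largest change, with 9.91, 9.54, 7.79 and 9.23 FPKM against 4.89, 5.37 and 7.20 FPKM. All 4 values were above WT (0.66 ± 0.12, adjusted p = 0.0151), and WT library 7 was the one nearest to them. Inducible Hsp70 is encoded by 2 neighbouring genes, Hspa1a at 1.6, 1.32, 1.34 and 1.09 FPKM against 0.699, 0.801 and 0.998 FPKM in WT, and Hspa1b at 1.74, 1.56, 1.55 and 1.28 FPKM against 0.798, 1.04 and 1.27 FPKM. Both were separated from WT, the second narrowly, with adjusted p of 0.0149 and 0.0379. Their promoter windows share 98.7% of bases, and how fragments were divided between such near-identical genes is not given, so the 2 values are not independent. Stip1, which hands clients from Hsp70 to Hsp90, averaged 118 ± 9.97 against 93.7 ± 7.28 FPKM (adjusted p = 0.0367). In the amino acid stress list Trib3 and Mthfd2 rose, 2 of 20 members, by 0.62 and 0.38 (adjusted p = 0.0162 and 0.0359). Of these 7, only Hsph1 was called without WT libraries 5 to 7 (adjusted p = 0.0387), and the others lay between 0.0696 for Hspa1a and 0.0937 for Hspa1b. St13 was called in 0 of the 15 leave-one-out fits.

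Some red cell genes were higher. In the membrane and blood group list 4 of 19 rose (Ermap, Kel, Epb42 and Slc4a1), and 2 of 12 erythroid regulators rose (Tal1 and Epor). Of the 19 membrane genes 11 had a positive and 8 a negative log2 fold change, with a median of 0.11. Of the 12 regulators 10 were positive, with a median of 0.17. Ermap, an erythroid membrane protein, was at 2.82, 2.04, 2.69 and 1.93 FPKM against 0.647, 0.990 and 1.07 FPKM in WT. Kel, the Kell blood group peptidase, was at 4.88, 4.45, 5.10 and 3.42 FPKM against 1.51, 1.56 and 2.57 FPKM. The knockout libraries stood clear of WT for both genes. Ermap had the lowest adjusted p of any named gene (1.03 ± 0.12, adjusted p = 0.00318), followed by Kel (1.13 ± 0.15, adjusted p = 0.00678), and both held in all 15 leave-one-out fits and without WT libraries 5 to 7 (adjusted p = 0.0159 and 0.0387). Epb42, a membrane skeleton protein, averaged 2.34 ± 0.473 against 1.01 ± 0.241 FPKM, and Tal1, a transcription factor of blood and endocardium, 5.5 ± 0.903 against 2.78 ± 0.569 FPKM. Slc4a1, the band 3 anion exchanger, averaged 20.9 ± 4.44 against 11.3 ± 2.90 FPKM with 1 overlapping library. Tal1 held without WT libraries 5 to 7 (adjusted p = 0.0466), and Epb42, Epor and Slc4a1 had 0.0587, 0.09 and 0.109. Plek2, a pleckstrin family protein of maturing red cells, and Slc6a9, the glycine transporter that feeds heme synthesis, rose by 0.69 and 0.76 (adjusted p = 0.00759 and 0.0106, and 0.022 and 0.0604 without WT libraries 5 to 7).

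To show the Kel window beside these calls, the promoter is printed with its match to the GATA site AGATAA, or TTATCT on the other strand, the kind of site bound by the erythroid regulator GATA1.
Kel promoter, chr6:41704276-41704575, minus strand: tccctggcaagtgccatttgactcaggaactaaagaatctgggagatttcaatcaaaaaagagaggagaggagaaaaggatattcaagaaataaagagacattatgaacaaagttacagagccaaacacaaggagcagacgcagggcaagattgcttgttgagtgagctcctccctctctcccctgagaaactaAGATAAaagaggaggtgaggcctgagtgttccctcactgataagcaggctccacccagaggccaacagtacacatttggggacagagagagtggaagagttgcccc
The site starts at base 195. It is in the windows of Kel, Epb42 and Epor, in 1 of the 2 windows of Tal1 and not in that of Ermap, and 11.2% of all windows hold it.

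The most abundant adult red cell transcripts were not called. Adult alpha globin Hba-a1 averaged 6588 against 6688 FPKM (adjusted p = 0.995), adult beta globin Hbb-bt 2346 against 3564 FPKM (adjusted p = 0.292), and the heme enzyme Alas2 52.5 against 68.0 FPKM (adjusted p = 0.505). The regulators Gata1 and Klf1 were not called (adjusted p = 0.266 and 0.551). Yolk sac globins were high instead: of 8 globins tested the 2 called were Hbb-bh1 and Hbb-bh0, the latter an annotated pseudogene. Their log2 fold changes without WT libraries 5 to 7 went from 2.54 to 1.71 and from 1.99 to 1.45 (adjusted p = 0.0828 and 0.136). Hbb-y read 5056, 3866, 4516 and 4073 FPKM against 134, 1149 and 2073 FPKM in WT, and Hba-x 624, 522, 690 and 372 FPKM against 20.6, 156 and 258 FPKM. These 4 embryonic globins were separated from every WT library, yet Hbb-y and Hba-x missed the threshold (adjusted p = 0.0577 and 0.0502). WT libraries differed widely among themselves: WT libraries 1 to 4 had 1149 to 2073 FPKM of Hbb-y and WT libraries 5 to 7 had 134 to 413 FPKM. Without WT libraries 5 to 7 the log2 fold change of Hbb-y was 1.51 in place of 2.66. With the mean level of the red cell membrane and erythroid regulator lists as a covariate, 0 genes of the whole table were called in limma and 1706 had an unadjusted p under 0.05. All 417 genes kept their direction there, and the log2 fold change was -1.43 for Fabp4, 1.20 for Stmn4, 0.78 for Kel and 0.69 for Ermap, against -1.26, 1.13, 1.13 and 1.03 without the covariate. The covariate was built from lists that hold Kel, Ermap, Epb42, Slc4a1, Tal1 and Epor, so these genes were adjusted for themselves. It also partly follows genotype, the membrane list level being 2.07 to 2.28 in Adamts16+/- and 1.86 to 2.10 in WT. Red cell content and genotype cannot be told apart in this fit.

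**Figure D4:**
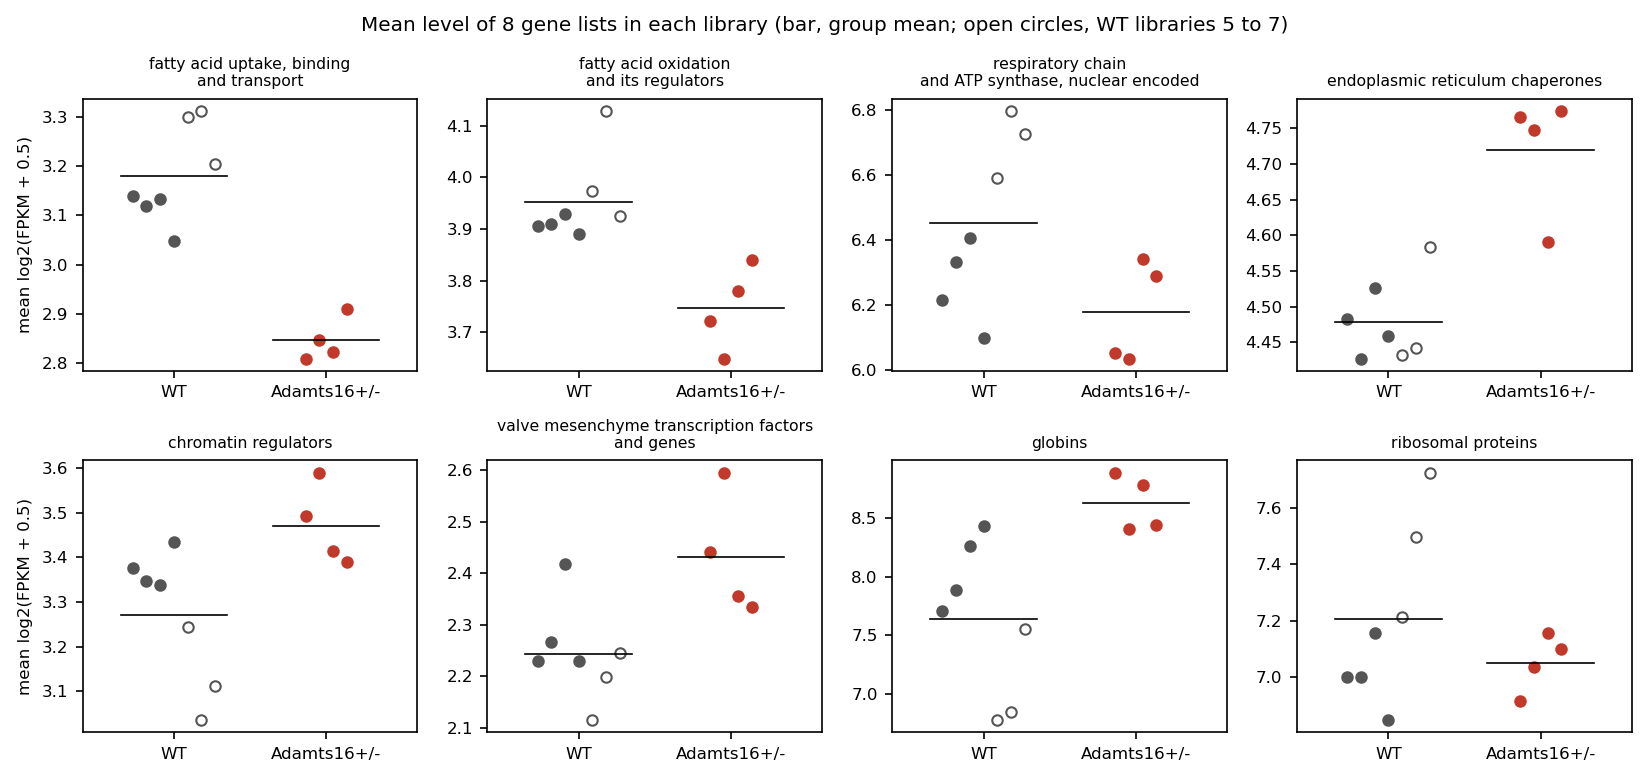
Mean log2(FPKM + 0.5) of 8 gene lists in each WT and Adamts16+/- library, with the group mean as a bar and WT libraries 5 to 7 as open circles. The Adamts16+/- points lie below all WT points for both fatty acid lists and above them for endoplasmic reticulum chaperones. The gap is narrow for the chaperones, with Adamts16+/- library 3 at 4.591 and WT library 7 at 4.584. For fatty acid oxidation Adamts16+/- library 4 is at 3.839 and WT library 4 at 3.891. For ribosomal protein genes WT libraries 5 to 7, at 7.21 to 7.73, stand above all the others.

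Some genes of growth signalling rose in small steps. In the list of FGF and ERK feedback genes 5 of 29 rose and 0 fell, with a median of 0.17. Dusp6, a phosphatase that switches off ERK, read 11.6, 11.1, 11.1 and 13.2 FPKM against 8.07, 9.41 and 10.2 FPKM in WT, and the groups did not overlap (0.34 ± 0.07, adjusted p = 0.0258). Spry4, a feedback inhibitor of receptor signalling, was at 3.09 ± 0.283 against 2.34 ± 0.225 FPKM. The transcription factors Mycn, Etv4 and Myc rose by 0.48, 0.41 and 0.43 (adjusted p = 0.0267, 0.0335 and 0.0437). Dusp6 and Myc kept an adjusted p of 0.0387 without WT libraries 5 to 7, and Spry4, Mycn and Etv4 had 0.0618, 0.0932 and 0.118. Without WT libraries 1 to 4 Dusp6 was called and Myc was not, its log2 fold change then being 0.26. Outside the list, the X-linked ERK phosphatase Dusp9 read 1.69, 1.81, 1.78 and 1.68 FPKM against 0.731, 0.912 and 1.28 FPKM, separated from WT and called in all 15 leave-one-out fits (adjusted p = 0.0121, and 0.0486 without WT libraries 5 to 7). Of 36 cell cycle genes only the D cyclins Ccnd1 and Ccnd2 rose, by 0.32 and 0.37 (adjusted p = 0.0258 and 0.0456, and 0.0696 and 0.142 without WT libraries 5 to 7), and 0 of 30 DNA replication genes were called.

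Igf2bp2, which binds and stabilises growth-related mRNAs of the fetus, read 14.7, 15.2, 14.1 and 12.9 FPKM against 7.36, 9.10 and 10.1 FPKM. Every knockout value was above WT, with a log2 fold change of 0.64 ± 0.10 (adjusted p = 0.0092), called in all 15 leave-one-out fits and without WT libraries 5 to 7 (adjusted p = 0.0474). The imprinted gene Mest was among the most abundant higher genes, at 463 ± 44.9 against 343 ± 45.1 FPKM (adjusted p = 0.0378, and 0.114 without WT libraries 5 to 7), and Igfbp7, a secreted growth factor binding protein, fell by 0.81 (adjusted p = 0.0314). Of 33 chromatin regulators Smarcc1 and Smarca4, subunits of the same remodelling complex, rose by 0.31 and 0.35 (adjusted p = 0.0314 and 0.0387). The list median was 0.20, and 0.10 without WT libraries 5 to 7.

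A few valve and cushion genes were higher. Of 29 valve mesenchyme genes 3 rose (Twist1, Gata5 and Sox9) and 0 fell, with a median of 0.15. Twist1, a transcription factor of proliferating cushion mesenchyme, read 3.51, 4.07, 3.06 and 3.82 FPKM against 1.71, 2.42 and 2.79 FPKM, and Gata5, an endocardial factor needed for valve formation, 7.13, 7.32, 7.44 and 6.18 FPKM against 3.08, 4.38 and 5.25 FPKM. Both were separated from WT (adjusted p = 0.0224 and 0.0228). Sox9, which drives cushion expansion, read 4.92, 5.2, 3.40 and 3.01 FPKM against 2.21, 2.48 and 3.21 FPKM, so Adamts16+/- library 4 overlapped (0.59 ± 0.14, adjusted p = 0.0377). Without Adamts16+/- libraries 1 and 2 and WT library 7 its log2 fold change was 0.30 (adjusted p = 0.488). Hapln1, which links hyaluronan to versican in the cushions, read 10.6, 9.85, 8.74 and 9.40 FPKM against 2.95, 4.55 and 6.59 FPKM. It was the 1 call among 24 proteoglycan and hyaluronan genes (1.02 ± 0.23, adjusted p = 0.0353). Its partner Vcan was at 63.6 ± 9.12 against 44.6 ± 11.1 FPKM and was not called (adjusted p = 0.119). Without WT libraries 5 to 7 the adjusted p of Twist1 was 0.0521 and those of Gata5, Sox9 and Hapln1 0.0795 to 0.139.

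Few genes of the TGF-beta, Wnt and Notch lists passed the test. The TGF-beta and BMP list had a median of 0.17 with 25 of 33 members above 0, and the Wnt list a median of 0.24 with 26 of 32 above 0. In the TGF-beta and BMP list Smad3 and Smad2, which carry the TGF-beta signal to the nucleus, rose by 0.25 and 0.30 (2 of 33, adjusted p = 0.0266 and 0.0448). The Wnt list gave Rspo3, a potentiator of Wnt signalling, and the ligand Wnt5a (2 of 32, both higher, adjusted p = 0.029 and 0.0482). Gdf6, a BMP family ligand, rose more, from 0.832 ± 0.285 to 1.99 ± 0.276 FPKM (0.93 ± 0.18, adjusted p = 0.0206). None of the 23 Notch genes was called, Notch1 itself averaging 6.10 ± 0.941 against 5.44 ± 0.844 FPKM (adjusted p = 0.505).

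Several matrix and fibroblast genes were lower. Sparcl1, a secreted matricellular protein, read 37.9, 41.4, 30.6 and 31.0 FPKM against 59.0, 62.0 and 69.1 FPKM. The groups lay far apart, and WT libraries 5 to 7 sat within the narrow WT spread (-0.84 ± 0.13, adjusted p = 0.0092, and 0.0486 without those 3 libraries). Dpt, the collagen-binding protein dermatopontin, read 5.22, 5.02, 4.21 and 4.76 FPKM against 9.15, 13.3 and 33.4 FPKM. It was separated from WT, but the size was set in part by WT libraries 5 to 7, with a log2 fold change of -1.72 with them and -1.19 without (adjusted p = 0.0174 and 0.0531). Ptgds, the prostaglandin D synthase of cardiac fibroblasts, had the largest drop of the named genes, from 11 ± 3.90 to 2.62 ± 0.0686 FPKM (-1.81 ± 0.32, adjusted p = 0.0137, and 0.0699 without WT libraries 5 to 7). Postn, a matricellular protein of valve and fibroblast, fell from 94.8 ± 7.18 to 71.6 ± 11.5 FPKM at the threshold itself (adjusted p = 0.05 after rounding, called in 2 of 15 leave-one-out fits). Among the leucine-rich matrix proteins, Ecm2 was at 2.20, 2.24, 2.06 and 2.38 FPKM against 2.88, 3.36 and 4.15 FPKM, below every WT library (-0.51 ± 0.08, adjusted p = 0.0092, and 0.0387 without WT libraries 5 to 7).

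Of 20 epicardial and fibroblast markers 3 fell (Fmo2, Ptgds and Dpt) and 0 rose, with a median of -0.11, and -0.02 with 0 called without WT libraries 5 to 7. The mean level of the list ran from 3.71 to 3.87 in Adamts16+/-, from 3.74 to 4.0 for WT libraries 1 to 4 and from 4.08 to 4.48 for the remaining 3. The fibrillar collagens Col1a1 and Col3a1, in the same list, were not called (adjusted p = 0.415 and 0.149). Of 27 collagen chains Col14a1, which coats fibrils, fell by 0.58 (adjusted p = 0.019). Of 25 collagen folding enzymes P3h2 and P4ha1, a prolyl 3-hydroxylase and a prolyl 4-hydroxylase subunit, rose by 0.69 and 0.40 (adjusted p = 0.0316 and 0.0434, and 0.119 and 0.143 without WT libraries 5 to 7), and the list median was 0.08.

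Fibronectin, whose fibrils several proteases of this family act on, was not called. Fn1 read 131, 138, 119 and 117 FPKM against 57.1, 108 and 113 FPKM, so the 4 knockout libraries lay above all of WT (0.53 ± 0.18, adjusted p = 0.132). Against WT libraries 1 to 4 alone the log2 fold change was 0.20 (adjusted p = 0.296). Of 20 ADAMTS and ADAMTS-like genes 1 was called, Adamtsl4, a microfibril-binding protein without protease activity, at 1.58, 1.58, 1.66 and 1.68 FPKM against 1.78, 2.25 and 2.27 FPKM. It was lower in every library (-0.31 ± 0.07, adjusted p = 0.0316) and kept an adjusted p of 0.0474 without WT libraries 5 to 7. Without WT libraries 1 to 4 the adjusted p of Adamtsl4 was 0.0774, and it was called in 8 of the 15 leave-one-out fits. None of 19 integrin genes and none of 12 matrix metalloprotease genes was called.

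How far each call rests on single libraries varied. In all 15 leave-one-out fits 41 genes were called (0.270% of those tested), 20 higher and 21 lower, and 27 of the 41 were called without WT libraries 5 to 7 as well. Besides genes described above, the higher ones included Stmn4, a neuronal tubulin regulator, at 5.65 ± 0.462 against 2.36 ± 0.629 FPKM (adjusted p = 0.0088), the kinase gene Hunk at 5.99 ± 0.180 against 4.23 ± 0.267 FPKM (adjusted p = 0.0088), and the nucleoporin gene Nup50 at 12.2 ± 0.394 against 9.40 ± 0.689 FPKM (adjusted p = 0.0116). Lower ones included Carns1, the carnosine synthase, at 0.836 ± 0.167 against 2.33 ± 0.517 FPKM (adjusted p = 0.0092), Depp1 at 3.68 ± 0.479 against 10.1 ± 1.93 FPKM (adjusted p = 0.00905), and Maob, a monoamine oxidase of heart and brain, at 3.23 ± 0.106 against 4.48 ± 0.289 FPKM (adjusted p = 0.0115). Of these, Stmn4, Hunk, Nup50, Carns1 and Depp1 had an adjusted p of 0.018 to 0.0478 without WT libraries 5 to 7, and Maob 0.0576. With WT libraries 5 to 7 left out 59 genes were called (0.389%), and with WT libraries 1 to 4 left out 2903 (19.1%). All 417 genes had the same sign either way, which their selection in these same libraries largely fixed in advance. Their median size was 0.39 on the log2 scale without WT libraries 5 to 7 and 0.53 without WT libraries 1 to 4, and 340 of the 417 were larger in the second.

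**Figure D5:**
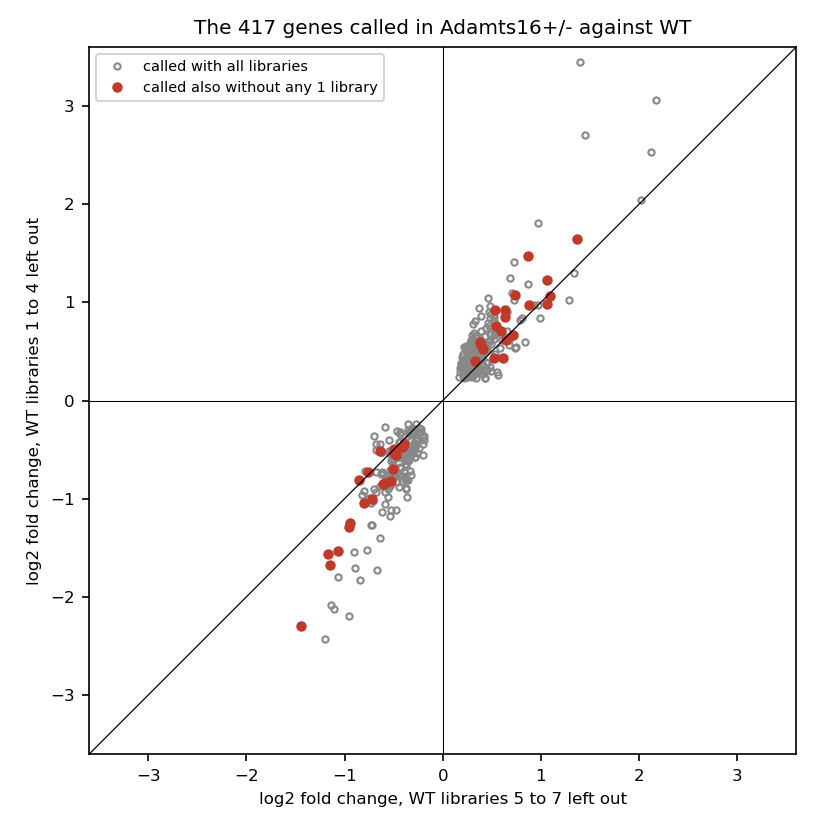
Log2 fold change of the 417 called genes with WT libraries 5 to 7 left out (horizontal) and with WT libraries 1 to 4 left out (vertical), with the line of equality. Filled points are the 41 genes called in every fit that leaves out 1 library. All points share a sign on both axes, and 340 lie farther from zero on the vertical axis.

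The 2 mutant genotypes were also set against each other for the named genes, in a contrast that called 5.71% of genes higher and 4.33% lower in Adamts16+/-. On the first principal component the Adamts16+/H355Q libraries lay at 8.49 to 23.1, on the side of WT libraries 5 to 7. The Adamts16+/- libraries lay on the side of WT libraries 1 to 4. The contrast thus runs along the axis that splits the WT libraries, and the part of that axis in the values below was not tested. Ermap and Kel were higher in Adamts16+/- than in Adamts16+/H355Q by 0.88 and 0.99 (adjusted p = 0.00807 and 0.00911), Igf2bp2 by 0.58 (adjusted p = 0.0122), and Gata5 by 0.85 (adjusted p = 0.0102). Fabp4 had a log2 difference of -1.10 (adjusted p = 0.0111) and Fabp3 of -0.79 (adjusted p = 0.00922). For other genes no difference between the alleles was called: Cd300lg differed by -0.15 (adjusted p = 0.504), Sparcl1 by -0.28 (adjusted p = 0.229), Myom2 by -0.61 (adjusted p = 0.14) and Stmn4 by 0.38 (adjusted p = 0.182). The Adamts16+/H355Q libraries were spread widely for several of these, as Fabp4 shows with 28.0, 34.5, 16.7 and 17.4 FPKM.

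Markers of tissues next to the heart were low in most libraries. Lung epithelial markers, on the log2(FPKM + 0.5) scale, averaged 0.48 to 0.94 in Adamts16+/- and 0.30 to 2.24 in WT, the highest being WT library 7. Of 7 measured, only Sox9 was called. Cartilage markers averaged 0.51 to 0.86 in Adamts16+/- and 0.29 to 0.73 in WT, and of 10 measured only Hapln1 was called. Both lists were higher in Adamts16+/- libraries 1 and 2 than in libraries 3 and 4. Liver markers, 0 of 8 called, averaged 0.20 to 0.81 in Adamts16+/-, from 0.04 to 0.67 for WT libraries 1 to 4 and from 1.32 to 1.70 for WT libraries 5 to 7. Thymus markers were called in 0 of 5 cases, and macrophage markers in 0 of 13. No member of these marker lists was at 0 in all 11 libraries. Their part in the results was not tested, beyond the fits with a lung or a red cell covariate given at the end.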

How the data were processed

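RNA of whole E14.5 mouse hearts was sequenced, 1 library per sample. The authors deposited FPKM (fragments per kilobase of gene, scaled to the library's total) for 55335 genes, and 55154 identifiers matched a symbol of GENCODE vM21. Per the submitters' processing notes, fastp, HISAT2, HTSeq, R 3.2.0 and DESeq2 were used. Neither which of them gave the FPKM nor the genome build, the annotation and any filter is given in the sources used here. Library totals are unknown. The low values came out as whole multiples of 1 fragment (within 0.1 of a step) for only 62.6 to 69.4% of values, so reads were not recovered and no count model was run. Implied totals from that fit are approximate.

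From there, log2(FPKM + 0.5) was fitted with limma 3.58.1 in R 4.3.3 over all 15 libraries, with genotype as the only term, a variance trend and Benjamini-Hochberg adjustment over the 15172 genes whose mean reached 0.5 FPKM; adjusted p under 0.05 was called. Fold changes are on this scale and understate changes of low genes. The script was tested on simulated data. Adamts16, below the filter, had an exact permutation test. Alternatives changed the pseudocount, filter, scaling, variance model, covariates, block and libraries.

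Named genes are the 20 called genes of largest change and the 10 most abundant in each direction (mean of at least 1 FPKM, numbered models left out), up to 5 called members per list, up to 15 in each direction called in every leave-one-out fit with no overlap, and Adamts16, Fn1, Sox9, Postn, Vcan and Notch1. List members that were not called are named with their values, and Myh3, Nppa, Col1a1 and similar genes are such members. Members, lists and tests were chosen with earlier results of these data known. Promoter windows are from RefSeq (GRCm38.p6), matched by symbol. Besides the motifs given above, a PPAR direct repeat was searched in the windows of Fabp3, Cd36 and Pdk4. Of these 3 genes 0 had a match. Only 0.0396% of the 32817 windows hold this repeat, so its absence from these windows is given as a value only.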

Additional observations from a re-analysis of the deposited data

Results flagged for a closer look

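In 232 tests of a named gene's values within the Adamts16+/- or the WT group, 9 found 1 library farther from its nearest neighbour than Dixon's 95% limit allows (3.88%), where chance gives about 1 in 20. In WT, library 4 held 2.57 FPKM of Kel against 1.51 to 1.89 in the other 6, library 7 held 7.20 FPKM of Hsph1 against 4.89 to 5.83 and 9.51 FPKM of Hk2 against 12.8 to 15, and library 5 held 41.8 FPKM of Cnn3 against 49.6 to 53.7 and 15.4 FPKM of St13 against 17.4 to 18.5. In Adamts16+/-, library 3 held 9.48 FPKM of Smad3 against 10.4 to 10.6 in the other 3, 4.55 FPKM of Gipr against 6.22 to 6.50, and 21.8 FPKM of St13 against 20.2 to 20.4. Library 4 held 23.3 FPKM of Smarcc1 against 24.9 to 25.2. For Kel and Hsph1 the far WT library is the one nearest to Adamts16+/-, and for Hk2, Cnn3 and the WT value of St13 it lies away from Adamts16+/-.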

How the results depend on the processing

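All 417 called genes kept their direction in every setting in which they were tested, and what changed was how many passed. The 417 were selected for a difference in these same libraries, so a kept direction was largely fixed in advance and is no separate support. With all libraries 417 genes were called, 238 of them higher. Another pseudocount, filter at 1 or 0.1 FPKM, variance model without trend or robust, or a lung covariate gave 359 to 546. No filter gave 157, array weights 1058, the 11 Adamts16+/- and WT libraries alone 274, the Y-linked covariate 208 and the red cell covariate 0. Leaving out 1 library gave 61 (without Adamts16+/- library 1) to 463 (without WT library 4), with 78, 97 and 150 without Adamts16+/- libraries 2, 3 and 4, and 171 and 229 without WT libraries 5 and 6. Leaving out WT libraries 5 to 7 gave 59, WT libraries 1 to 4 2903, and Adamts16+/- libraries 1 and 2 with WT library 7 gave 7. Scaling moved the split: 151 higher and 184 lower by median of ratios, 192 and 241 by quantiles, and 591 and 163 of 754 as TPM, against 238 and 179. The cause of these shifts was not tested. The deviations of same-numbered Adamts16+/- and WT libraries were weakly correlated (0.0719, -0.124, 0.150 and -0.0355), which gave no sign of pairing. The replicate block called 8 genes (7 higher, 1 lower), 6 of them among the 417. Numbers 5 to 7 exist only in WT, so the block takes those libraries out of the comparison. Its log2 fold changes equal those without WT libraries 5 to 7 (1.06 for Ermap and -1.06 for Fabp4 both ways), and it is no separate check. The values of 2 genes that were not called changed sign. Notch1 was -0.0303 without Adamts16+/- libraries 1 and 2 and WT library 7. Adamts16 was -0.15 without WT libraries 1 to 4 and 0.15 without WT libraries 5 to 7. The leave-one-out range of Adamts16 was -0.0642 to 0.0721. Depth limits genes near or under 0.5 FPKM.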

Other observations

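Beyond the lists, further genes were called in Adamts16+/-; they were picked after their values were seen and are given as values only. All 3 members of the Igf2bp family of mRNA-binding proteins were called higher, Igf2bp1 by 0.61, Igf2bp2 by 0.64 and Igf2bp3 by 0.32 on the log2 scale, with Igf2bp1 at 9.03 ± 0.667 against 5.81 ± 0.924 FPKM and Igf2bp3 at 10.2 ± 0.351 against 8.07 ± 0.705 FPKM. Of enzymes that make or desaturate fatty acids, some were called higher: Acaca, which makes malonyl-CoA, at 4.20 ± 0.279 against 3.31 ± 0.199 FPKM, Fasn, the fatty acid synthase, at 12.9 ± 1.12 against 9.98 ± 1.17 FPKM, the desaturase Scd2 at 35.8 ± 2.45 against 26.4 ± 2.48 FPKM, and the desaturase Fads2 by 0.49 on the log2 scale. Their adjusted p in limma was 0.0312, 0.0434, 0.0206 and 0.0377. The desaturase Scd4 was called lower, by -0.68 (adjusted p = 0.0258), and Scd1 and Fads1 were not called (adjusted p = 0.812 and 0.107). Single genes of nucleolar proteins called higher were Polr1a, the large subunit of RNA polymerase I, by 0.26, Nolc1 by 0.36, Mybbp1a by 0.35 and Rrp12 by 0.36, with adjusted p of 0.0335, 0.0238, 0.0377 and 0.0312. Ccn2, a target of TGF-beta and YAP signalling, read 24.7, 19.5, 20.3 and 21.6 FPKM against a WT range of 12.1 to 15.6 FPKM (0.65 ± 0.12, adjusted p = 0.0191). Without WT libraries 5 to 7 Igf2bp2 was the 1 gene of this paragraph that held, and the others called with all libraries had an adjusted p of 0.0576 for Ccn2 to 0.115 for Acaca.

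Some of the largest or firmest differences were in numbered gene models. Gm37527 had the lowest adjusted p of all genes (0.000979), at 1.47, 1.40, 1.48 and 1.41 FPKM against a WT range of 0.0872 to 0.399 FPKM. Gm26619 read 0.0124, 3.52, 1.80 and 3.26 FPKM in Adamts16+/- and at most 0.0170 FPKM in WT, so 1 of the 4 libraries was at the WT level. Gm21887 read 35.1, 40.9, 17.7 and 23.9 FPKM against a WT range of 0.0341 to 8.57 FPKM, and Gm47283 11.2, 11.1, 6.21 and 11.6 FPKM against 0.0180 to 3.12 FPKM. In Adamts16+/H355Q these last genes were at 23.4 to 30.3 and 9.91 to 17.8 FPKM, so both mutant genotypes were above WT. Gm37527, Gm21887 and Gm47283 were called without WT libraries 5 to 7 as well, and Gm26619 was not (adjusted p = 0.0861).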
